A study of Homo sapiens with 12 samples.

Results

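The 37 genes described here encode proteins of the lysosome: 7 membrane proteins, 6 cathepsins, 10 other acid hydrolases, 4 activator and other lumenal proteins, 7 subunits of the V-ATPase or its accessory proteins, and 3 genes of lysosomal and autophagic control. The set was chosen with earlier results of these data known. Its members were picked by gene symbol from the deposited count table, which lists 58051 genes, and all 37 were found there. The cells were MDA-MB-231, a human triple-negative breast cancer line, transfected with pools of siRNA, and RNA was sequenced after ribosomal RNA depletion. The 4 groups, of 3 libraries each, were siControl (a non-targeting siRNA pool), siNELFA (a pool against NELFA, a subunit of the negative elongation factor that holds RNA polymerase II near promoters), siYAP (a pool against YAP1, a transcriptional co-activator of the Hippo pathway) and siNELFA+siYAP (both pools). All groups were given siRNA at 50 to 100 nM and none was left untransfected. The labels give harvests at 48 and 72 hours without assigning either to a library, whereas the methods of the study place the sequenced RNA at 72 hours. All 12 libraries come from a single cell line, and the knockdowns are transient.

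The lysosome is the acidic organelle in which proteins, lipids, glycans and nucleic acids taken up by endocytosis or delivered by autophagy are broken down. The V-ATPase pumps protons across its membrane, the hydrolases work at the resulting low pH, heavily glycosylated proteins such as LAMP1 and LAMP2 line the inner face of the membrane, and small activator proteins present lipids to the enzymes. Many genes of the organelle share the palindromic E-box CACGTG near their start sites, which the basic helix-loop-helix factors TFEB and TFE3 recognise in its extended form TCACGTGA (the CLEAR element).

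The E-box windows of the promoters are shown because TFEB and TFE3, both of which were themselves measured, recognise this element, which only some of these genes hold. RefSeq promoter sequences (GRCh38.p14, 250 bases before to 50 after a start site) were at hand for 28 of the 37 genes. The letters CACGTG, a palindrome and so the same on both strands, occurred in the promoters of 8 of these 28 genes (28.6%), against 8.77% of the 27305 genes with a promoter sequence. TCACGTGA, which contains CACGTG, occurred in 5 of 28 (17.9%), against 1.18% of all genes. The promoters of the 8 genes held 16 matches, of which 14 gave windows of 24 bases lying wholly before the start site, the other 2, of LAMP1 and MCOLN1, reaching past it. CD63 had 1 match over 8 promoter sequences. For each gene 1 window is printed, 5′ to 3′ on the strand of the gene with the matched letters in capitals.
ATP6V0D1 (chr16:67481202-67481225, minus strand, 59 bases before the start): ccttatggTCACGTGAggcgcttg
CTSA (chr20:45891301-45891324, plus strand, 25 bases before the start): gccggagtTCACGTGActcgtaca
GAA (chr17:80101541-80101564, plus strand, 31 bases before the start): cccgccggTCACGTGAcccgcctc
LAMP1 (chr13:113297202-113297225, plus strand, 28 bases before the start): ccgcgggaTCACGTGAcgcccggg
MCOLN1 (chr19:7522574-7522597, plus strand, 41 bases before the start): agaggcggTCACGTGAggggctct
CD63 (chr12:55729175-55729198, minus strand, 180 bases before the start): ggtaggggcCACGTGgccctggcc
CTSD (chr11:1763960-1763983, minus strand, 47 bases before the start): ggccgcgccCACGTGaccggtccg
NEU1 (chr6:31862933-31862956, minus strand, 126 bases before the start): ctgcgtgatCACGTGggaggagat
The promoter sequences of CD68, TCIRG1, GRN and SQSTM1 did not hold CACGTG in the windows searched. A match of letters is a description of the sequence, and binding was not measured.

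Libraries held between 9608145 and 18803104 counts. The targeted genes followed the labels. Levels are given as CPM, the count of a gene over the library total scaled by a TMM factor, for libraries 1 to 3 of each group in turn. NELFA stood at 25.3, 27.4 and 27.8 CPM in siControl, 9.95, 9.04 and 7.10 after siNELFA, 33.7, 25.2 and 22.2 after siYAP, and 8.18, 6.72 and 6.34 after both siRNA pools. YAP1 stood at 302, 268 and 246 CPM in siControl, 291, 247 and 253 after siNELFA, 46.1, 45.4 and 37.6 after siYAP, and 44.05, 40.7 and 40.1 after both siRNA pools. Both genes were called in the double knockdown, and in siNELFA the log2 fold change of NELFA was -1.63 (SE 0.21, adjusted p = 0.381) in the plain fit and -1.64 (SE 0.17, adjusted p = 3.9e-04) once the fit was blocked by replicate number. Of the genes that mark the line, VIM was at 749.7 to 1181 TPM (the deposited level per transcript length), ESR1 and PGR were at or near 0 (2.53 TPM at most), and ERBB2 was at 15.7 to 29.4. CD68 is best known as a macrophage marker, so the macrophage genes PTPRC, CD14, CSF1R, ITGAM, CD163, FCGR1A, LYZ, TYROBP, AIF1 and MRC1 were examined. Between 4 and 6 of these 10 had at least 1 count in a library, and their summed level was 6.56 to 24.4 TPM, most of it CD14, CSF1R and TYROBP. PTPRC, the pan-leukocyte gene, was at 0 in 9 of the 12 libraries and below 1 TPM in the others.

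One feature of the libraries bears on every comparison below. In siControl, siNELFA and siYAP, the library numbered 1 stood apart from those numbered 2 and 3, and the biological coefficient of variation, the spread between libraries beyond counting error, fell from 0.361, 0.349 and 0.362 to 0.125, 0.155 and 0.148 when only replicates 2 and 3 were kept. The siNELFA+siYAP group had no such library, and its coefficient was 0.0613. The names of the siNELFA+siYAP libraries all carry N1 with a running number, where those of the other groups carry N1, N2 and N3, and whether they came from separate cultures is not given by the labels, so p-values involving this group may measure technical spread. The lysosomal genes took part in this shift. Replicate 1 was the highest of the 3 libraries for 24 of 37 genes in siControl, 27 in siNELFA and 27 in siYAP, where 41.7%, 41.6% and 41.4% of all 18525 genes were highest in it. It was highest in all 3 of these groups for 22 of the 37 genes (24.5% of all genes) and lowest in all 3 for 4. The median lysosomal gene in replicate 1 lay above the mean of replicates 2 and 3 by 0.32 on the log2 scale in siControl, 0.67 in siNELFA and 0.73 in siYAP, and the difference was -0.02 in siNELFA+siYAP. These libraries also differed in genes outside the lysosome. CDH1, the epithelial cadherin that this mesenchymal line largely lacks, read 7.92, 0.819 and 0.193 TPM in siControl, 11.97, 1.58 and 0 after siNELFA, 7.06, 0 and 0 after siYAP, and 0.880, 0.0529 and 0.190 after both siRNA pools. CD14 likewise read 9.31, 2.17 and 1.88 TPM in siControl, 22.5, 4.35 and 2.74 after siNELFA, 11.5, 1.95 and 1.73 after siYAP, and 3.43, 2.92 and 4.67 after both siRNA pools. The part that whatever set these libraries apart plays in the lysosomal values was not tested, so results are given with and without them. Because same-numbered libraries of siControl, siNELFA and siYAP deviated together, comparisons among these 3 groups are also given with the replicate number as a block. The shared shift of replicate 1 can by itself give such agreement for replicates 2 and 3, whose pairing was not tested separately.

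**Figure D1:**
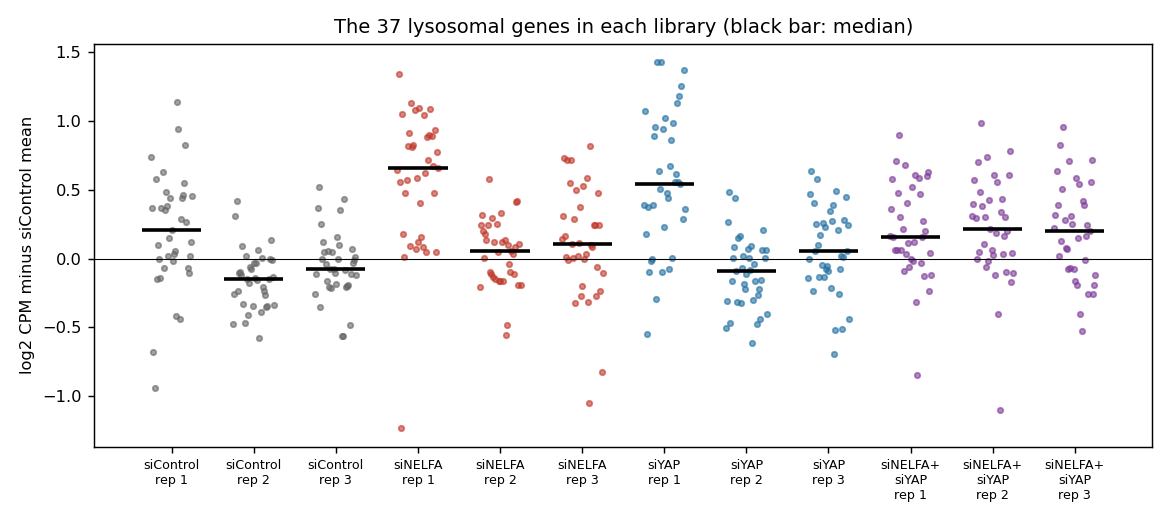
Log2 CPM of each of the 37 lysosomal genes (points) relative to the siControl mean of that gene, in each of the 12 libraries, with the median gene as a black bar. The medians of siNELFA replicate 1 (0.66) and siYAP replicate 1 (0.54) stand above those of the other libraries of their groups, and the 3 siNELFA+siYAP libraries lie together at 0.15 to 0.21.

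Per transcript length, CTSD was the most abundant of the 37 genes in siControl, at 737 ± 245 TPM (SD, n = 3), followed by SQSTM1 at 403 ± 25.4, PSAP at 370.4 ± 149.8, CD63 at 300.1 ± 18.1 and CTSB at 277 ± 119. From SQSTM1 on, each mean ± SD overlapped the next in this order, whereas SQSTM1 and CD63 did not overlap, nor did CTSD and SQSTM1. TFEB was the least abundant at 3.96 ± 0.601 TPM, below MCOLN1 at 11.3 ± 2.29, MANBA at 11.5 ± 6.72 and GAA at 13.1 ± 1.12, which did not differ beyond their spread. TFE3 was at 61.8 ± 4.40 TPM. Every one of the 37 genes passed the filter on low counts in every comparison, so each was tested throughout.

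After NELFA knockdown most lysosomal genes had a somewhat higher CPM than in siControl, by a median of 0.27 on the log2 scale over the 37 genes, where the median of all 17727 genes tested was 0.00. The estimate was above 0 for 32 of 37, against 50.0% of all genes. edgeR's quasi-likelihood test without a block called 0 of 37 at an adjusted p under 0.05 (0.00564% of all genes were called in either direction), and at an unadjusted p under 0.05 5 genes were higher, against 2.25% of all genes, and 0 lower, against 2.21%. DESeq2 called 0. With the replicate number as a block, 9 of 37 rose at an adjusted p under 0.05, against 2.76% of all genes, and 0 fell, against 2.45%. These 9 were CD68, CD63, CTSL, PSAP, NPC2, GRN, TCIRG1, ATP6AP1 and SQSTM1, so that every functional subgroup but the non-cathepsin hydrolases had at least 1. In the same fit CD14, at 1.21 (SE 0.23, adjusted p = 0.0110), was the 1 called of the 2 macrophage genes tested, CSF1R being at -0.67 (SE 0.21, adjusted p = 0.0904). The summed macrophage level was 8.37 to 18.3 TPM in siControl and 6.56 to 24.4 in siNELFA, and its part in the lysosomal result was not tested. The block counted 19 genes higher at an unadjusted p under 0.05 (10.5% of all genes) and 1 lower, ATP6V0D1 (9.78%). Without the replicate 1 libraries of both groups, an alternative added after the data were seen, the median was 0.21, 30 of 37 estimates were above 0, no gene passed the adjusted threshold (0.0664% of all genes did so upwards), and 12 genes were higher (7.10% of all genes) and 1 lower (7.15%) at an unadjusted p under 0.05. The 3 siNELFA libraries lay above all 3 siControl libraries for 7 genes, CD68, CD63, CTSC, GAA, GRN, TCIRG1 and SQSTM1, against 6.24% of all genes, and below them for none, against 5.93%. In bulk RNA, less RNA per cell and fewer cells of a kind cannot be told apart.

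After YAP knockdown the lysosomal genes also lay above the same siControl libraries on balance. The median log2 fold change over the 37 genes was 0.13, beside 0.00 for the 17296 genes tested, and 29 of 37 estimates were above 0, against 49.8% of all genes. No lysosomal gene was called at an adjusted p under 0.05 without the block (0.00578% of all genes) or with it (0.0173%), and DESeq2 called 0. CD68 and TCIRG1 were higher at an unadjusted p under 0.05 without the block, against 0.752% of all genes, and none was lower, against 0.549%. With the block 10 genes were higher, against 5.11%. The siYAP libraries of CD68 and TCIRG1 all lay above siControl, against 4.12% of all genes, and no lysosomal gene lay below all 3 siControl libraries, against 3.64%. Without replicate 1 of both groups the median was 0.08, with 30 of 37 estimates above 0 and 3 genes higher at an unadjusted p under 0.05 (2.17% of all genes) and 0 lower (2.19%).

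In the double knockdown the estimates were divided more evenly between the 2 directions. The median was 0.14, where the median of all 17533 genes was -0.03, and 23 of 37 estimates were above 0, against 47.4% of all genes. By edgeR CD68 alone passed the adjusted threshold, against 0.120% of all genes in the upward direction. At an unadjusted p under 0.05, 10 genes were higher and 2 lower, against 8.27% and 10.2% of all genes. DESeq2 called 6 higher at an adjusted p under 0.05, CD68 among them, against 2.35% of all genes, and 0 lower, against 3.53%. There were 13 genes whose 3 double-knockdown libraries all lay above all 3 siControl libraries, against 15.9% of all genes, namely CD68, CD63, LAMP1, CTSC, CTSL, GAA, HEXA, NEU1, GRN, TCIRG1, ATP6V0C, ATP6V1B2 and SQSTM1. TFE3 was the 1 gene whose libraries all lay below, against 13.9% of all genes. Of the alternatives tried, leaving out 1 control library moved this comparison most. Without siControl replicate 1, 22 of 37 genes rose and 1 fell at an adjusted p under 0.05, against 11.5% and 12.9% of all genes, the median was 0.27 beside 0.00 for all genes, and 33 of 37 estimates were above 0. By subgroup, the risen genes were 6 of 7 membrane proteins, 3 of 6 cathepsins, 4 of 10 other hydrolases, 3 of 4 activators and lumenal proteins, 5 of 7 V-ATPase genes, and SQSTM1, and the gene that fell was TFE3. The double-knockdown values of single genes below are with all libraries unless stated.

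On the deposited TPM scale these differences were smaller, and the scale itself moved the median of all genes. On log2(TPM + 1), limma gave a median of 0.02 over the 37 genes in siNELFA, where that of all genes was -0.17, 0.07 in siYAP, where that of all genes was -0.05, and 0.02 in the double knockdown, where that of all genes was -0.11. Estimates above 0 numbered 22 of 37 in siNELFA (27.1% of all genes), 25 in siYAP (40.4%) and 20 in the double knockdown (36.9%), whereas 31, 26 and 24 lay above the median of all genes. On this scale CD68 and SQSTM1 were the genes whose siNELFA libraries all lay above siControl (1.80% of all genes), and GM2A, TFE3 and ATP6V1H those whose libraries all lay below (13.3%). In siYAP CD68 alone lay above (2.22%) and ATP6V1H alone below (5.13%). In the double knockdown 9 genes lay above (7.23%), CD68, CD63, LAMP1, CTSL, GAA, GRN, TCIRG1, ATP6V1B2 and SQSTM1, and TFE3 and ATP6V1H below (16.5%). No lysosomal gene passed an adjusted p of 0.05 by limma, where 5, 1 and 11 of all genes did in siNELFA, siYAP and the double knockdown. At an unadjusted p of 0.05, 4, 2 and 8 lysosomal genes passed, beside 1580 of 17726, 534 of 17296 and 2794 of 17532 genes tested.

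**Figure D2:**
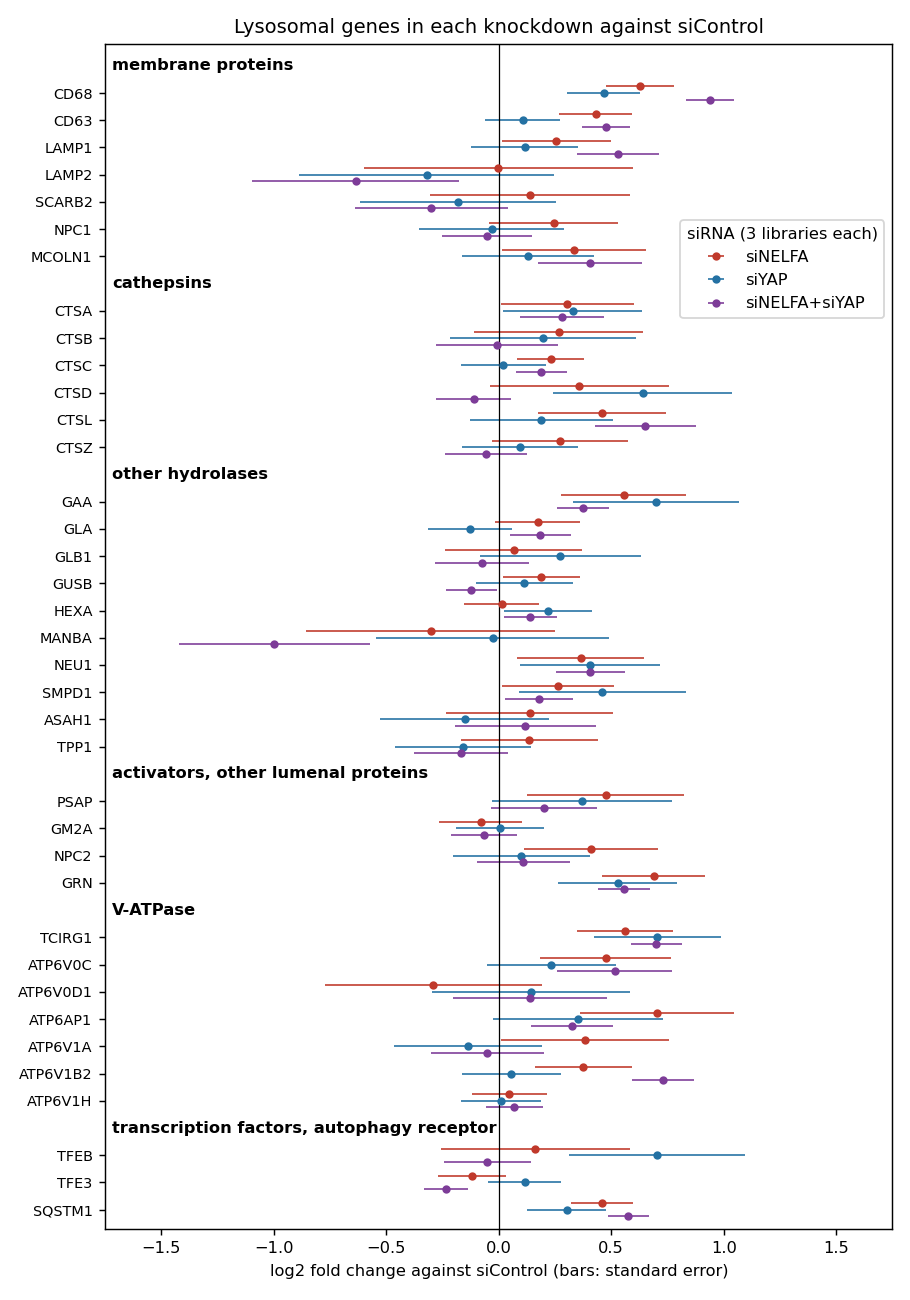
Log2 fold change (points) and its standard error (bars) for each of the 37 genes in each knockdown against siControl, from edgeR fits to the 6 libraries of each comparison without a block. Most siNELFA points lie right of 0, and in the double knockdown CD68 at 0.94 and MANBA at -0.999 lie farthest from it.

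CD68 and TCIRG1 were the 2 of 37 genes whose libraries lay above all 3 siControl libraries in each of the 3 knockdowns, against 0.985% of the 16854 genes tested in all 3 comparisons. On the TPM scale that held for CD68 and not for TCIRG1, whose siNELFA and siYAP libraries overlapped siControl. The 3 comparisons share the siControl libraries. Both genes had been singled out for this rise when the set was chosen, with earlier results of these data known. The count is therefore a description, and its excess over the share of all genes is not a test.

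CD68, a glycoprotein of the late endosomal and lysosomal membrane, stood at 88.9, 104 and 101 CPM in siControl, 146, 147 and 161 after siNELFA, 129, 133 and 146 after siYAP, and 183, 194 and 191 after both siRNA pools. The 4 groups followed one another with no overlap between siControl, the single knockdowns together, and the double knockdown, while the siNELFA and siYAP libraries overlapped each other. Replicate 1 was its lowest library in each of the 4 groups. Its log2 fold change was 0.94 (SE 0.11, adjusted p = 0.0317) in the double knockdown, which is 1.92-fold. In siNELFA it was 0.63 (SE 0.15, adjusted p = 1.00) without the block and 0.63 (SE 0.10, adjusted p = 0.00473) with it, and in siYAP 0.47 (SE 0.16, adjusted p = 1.00) without the block. The double-knockdown call was lost in several alternatives, with adjusted p = 0.140 without siControl replicate 2 and 0.363 to 0.389 without any 1 of the double-knockdown libraries. The log2 fold change stayed between 0.85 and 0.99. The call was kept in others, with adjusted p = 4.1e-07 by DESeq2 and 2.4e-07 by edgeR without siControl replicate 1. The gene lies at chr17:7579491-7582111 (GRCh38, plus strand), 485 bases downstream of EIF4A1, and 81.6% of its exon bases are shared on the same strand with a long non-coding gene that reads through from EIF4A1, RP11-186B7.4. The count of that gene was 95.7% to 97.6% of the sum of EIF4A1 and CD68 in every library, so reads on shared exons were counted for each gene that holds them. EIF4A1 itself had log2 fold changes of -0.06, -0.09 and -0.15 in siNELFA, siYAP and the double knockdown, none of them called.

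TCIRG1, the a3 subunit of the membrane sector of the V-ATPase, gave 94.3, 112 and 99.3 CPM in siControl, 194, 136 and 120.4 after siNELFA, 243, 118 and 139 after siYAP, and 157, 175 and 168 after both siRNA pools. In CPM all 9 knockdown libraries lay above all 3 siControl libraries, with replicate 1 the highest of siNELFA and of siYAP. The log2 fold change was 0.53 (SE 0.14, adjusted p = 0.0459) in siNELFA with the block and 0.56 (SE 0.21, adjusted p = 1.00) without, 0.70 (SE 0.28, adjusted p = 1.00) in siYAP, and 0.70 (SE 0.11, adjusted p = 0.0599) in the double knockdown. Without replicate 1 of both groups it was 0.29 in siNELFA and 0.28 in siYAP.

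**Figure D3:**
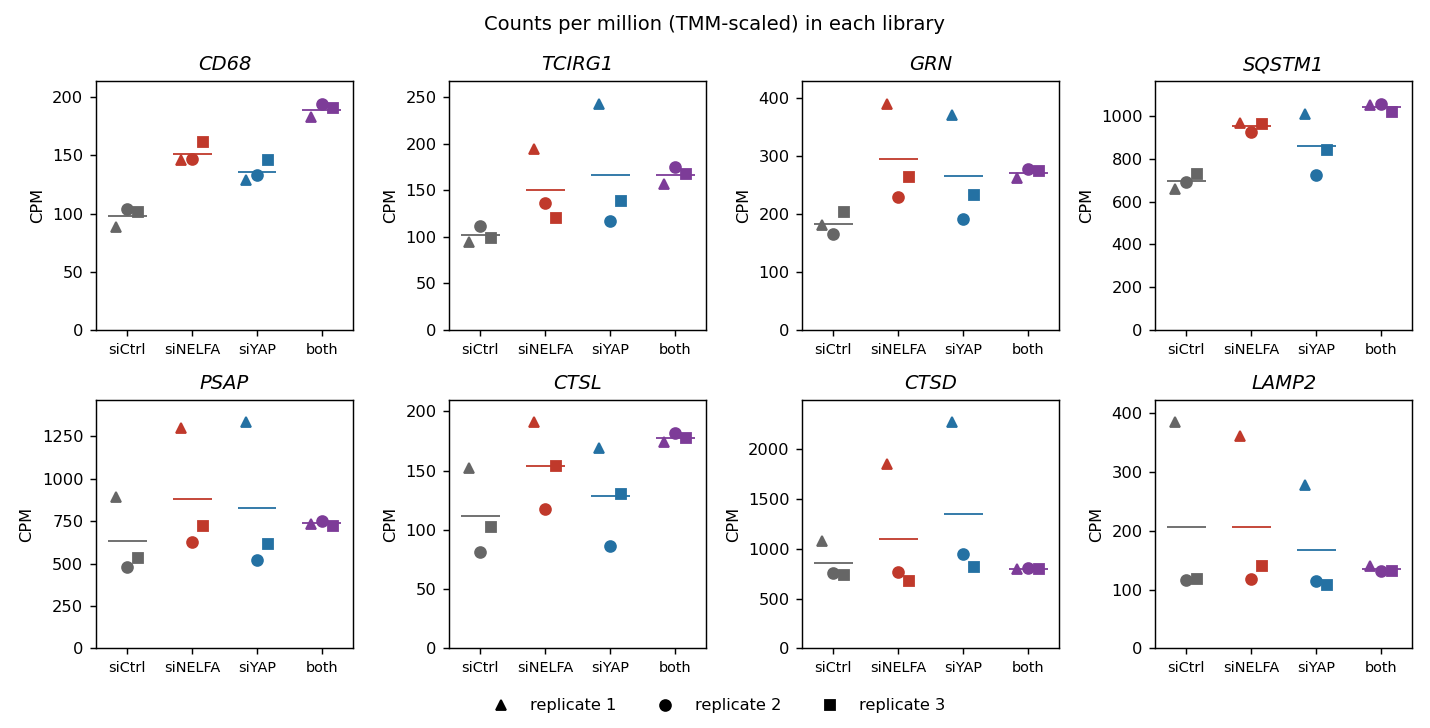
CPM of 8 lysosomal genes in each of the 12 libraries, by group (siCtrl, siControl; both, siNELFA+siYAP), with the mean as a line and the replicate number as the symbol. CD68 steps up from siControl to the single and the double knockdowns, whereas PSAP, CTSD and LAMP2 are highest in the replicate 1 libraries of siControl, siNELFA and siYAP.

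Among the other membrane proteins, the tetraspanin CD63, which traffics between lysosomes and exosomes, gave 165, 153 and 180.1 CPM in siControl, 231, 197 and 242 after siNELFA, 165, 176 and 197 after siYAP, and 230.2, 232 and 236 after both siRNA pools. The siNELFA and double-knockdown libraries all lay above siControl, and the siYAP libraries overlapped it. Its log2 fold change was 0.43 (SE 0.09, adjusted p = 0.0189) in siNELFA with the block and 0.43 (SE 0.16, adjusted p = 1.00) without, 0.11 in siYAP and 0.47 (SE 0.11, adjusted p = 0.0944) in the double knockdown. LAMP2, the receptor of chaperone-mediated autophagy, gave 385, 117 and 118 CPM in siControl, 361, 119 and 140.2 after siNELFA, 279, 114 and 108 after siYAP, and 140.0, 132 and 132 after both siRNA pools. Replicate 1 was more than 2-fold above the other libraries of siControl, siNELFA and siYAP, and not in the double knockdown. Its log2 fold change in the double knockdown was -0.64 (SE 0.46, adjusted p = 0.497) with all libraries and 0.19 (SE 0.06, adjusted p = 0.0400) without siControl replicate 1, a reversal of sign. SCARB2, which carries glucocerebrosidase to the lysosome, and NPC1, the cholesterol exporter, were likewise highest in replicate 1 of these 3 groups, with log2 fold changes from -0.30 to 0.24 over the 3 comparisons. LAMP1 differed from LAMP2 in being lowest, not highest, in siControl replicate 1, and its double-knockdown libraries lay above siControl, at 337, 325 and 322 against 165, 230.3 and 282 CPM. The calcium channel MCOLN1 stood at 10.6 to 26.0 CPM, with log2 fold changes of 0.33, 0.13 and 0.40 in siNELFA, siYAP and the double knockdown. None of these was called against siControl by edgeR when all libraries were kept, with or without the block.

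All 6 cathepsins had positive estimates in siNELFA, from 0.23 to 0.46, and in siYAP, from 0.02 to 0.64, while 3 of 6 were above 0 in the double knockdown. On the TPM scale CTSC and CTSD were at -0.01 and -0.08 in siNELFA, above the median of all genes on that scale, -0.17. CTSL, a cysteine protease, gave 152, 81.6 and 103 CPM in siControl, 191, 118 and 153 after siNELFA, 169, 86.5 and 129.8 after siYAP, and 174, 182 and 178 after both siRNA pools. The double-knockdown libraries lay above every siControl library, and replicate 1 was highest in the other 3 groups. CTSL rose in siNELFA with the block, by 0.48 (SE 0.10, adjusted p = 0.0180), and was at 0.46 (SE 0.28, adjusted p = 1.00) without it. In the double knockdown its log2 fold change was 0.65 (SE 0.23, adjusted p = 0.199) with all libraries and 0.94 (SE 0.08, adjusted p = 1.6e-06) without siControl replicate 1. CTSD, the main aspartic protease of the lysosome, read 1078, 759 and 731 CPM in siControl, 1849, 767 and 676 after siNELFA, 2267, 942 and 817 after siYAP, and 791, 809 and 800.4 after both siRNA pools. Here replicate 1 of siNELFA and of siYAP was more than 2-fold above the other libraries of its group. The estimates of 0.36 (SE 0.40, adjusted p = 1.00) in siNELFA and 0.64 (SE 0.40, adjusted p = 1.00) in siYAP became -0.04 and 0.24 without replicate 1 of both groups. The double knockdown was at -0.11 (SE 0.17, adjusted p = 0.754), or 0.10 without siControl replicate 1. A gene that reads through CTSD, RP11-295K3.1, shares 22.9% of its exon bases. CTSC, the dipeptidyl peptidase that activates serine proteases, stood at 71.7, 76.01 and 77.96 CPM in siControl, 79.95, 92.2 and 92.1 after siNELFA, 61.2, 83.6 and 84.7 after siYAP, and 87.4, 92.9 and 79.1 after both siRNA pools. Its siNELFA and double-knockdown libraries lay above siControl by small margins, with log2 fold changes of 0.23 (SE 0.15, adjusted p = 1.00) and 0.19 (SE 0.11, adjusted p = 0.421). CTSA, CTSB and CTSZ had log2 fold changes between -0.06 and 0.33 over the 3 comparisons, with none called when all libraries were kept, with or without the block. On the opposite strand, NELFCD, itself a subunit of the negative elongation factor, covers 31.7% of the exon bases of CTSZ, and whether the counts used strand is not given in the sources used here.

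The other 10 hydrolases had a median log2 fold change of 0.15 in siNELFA, 0.17 in siYAP and 0.13 in the double knockdown. With all libraries, none passed the adjusted threshold against siControl in any knockdown, with or without the block. Without siControl replicate 1, 4 of 10 rose in the double knockdown, against 11.5% of all genes. The siNELFA estimates of GLA, GLB1, GUSB, HEXA, SMPD1, ASAH1 and TPP1 were above 0 in CPM and below 0 in TPM. The median of all genes on that TPM scale was -0.17, and of these genes only HEXA, at -0.23, lay below it. GAA, the acid glucosidase that breaks down glycogen, was at 32.9, 31.1 and 33.5 CPM in siControl, 69.4, 38.8 and 35.2 after siNELFA, 88.2, 32.97 and 38.2 after siYAP, and 43.2, 43.8 and 40.4 after both siRNA pools. Both the siNELFA and the double-knockdown libraries lay above siControl. Its log2 fold change was 0.56 (SE 0.28, adjusted p = 1.00) in siNELFA, 0.70 (SE 0.37, adjusted p = 1.00) in siYAP and 0.37 (SE 0.12, adjusted p = 0.169) in the double knockdown, and 0.20 and 0.14 in the single knockdowns without replicate 1 of both groups. NEU1, a sialidase, had double-knockdown libraries at 131, 128 and 124 CPM against 115, 81.8 and 88.9 in siControl, with a log2 fold change of 0.41 (SE 0.16, adjusted p = 0.233). In siNELFA it was at 175, 92.02 and 101 CPM and in siYAP at 188, 84.5 and 109, overlapping siControl in both. MANBA, the beta-mannosidase, ran the other way, with 54.4, 21.3 and 18.8 CPM in siControl, 43.5, 19.9 and 13.2 after siNELFA, 51.3, 22.6 and 19.4 after siYAP, and 15.4, 12.8 and 19.3 after both siRNA pools. It had the lowest estimate of the 37 genes in the double knockdown, -0.999 (SE 0.42, adjusted p = 0.270), which was -0.34 without siControl replicate 1. TPP1, a tripeptidyl peptidase, gave 209.9, 121 and 141 CPM in siControl, 242, 134 and 143 after siNELFA, 196, 116 and 113 after siYAP, and 141, 143 and 141 after both siRNA pools. Its log2 fold changes of 0.13, -0.16 and -0.17 were within the spread of the libraries, the last becoming 0.10 without siControl replicate 1. GLA, GLB1, GUSB, HEXA, SMPD1 and ASAH1, hydrolases of glycolipids, glycans and sphingolipids, had estimates from -0.15 to 0.46. With all libraries none of them had an adjusted call against siControl, with or without the block. GUSB has pseudogene copies in the genome, so its counts are less certain.

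Of the activators and lumenal proteins, 3 of 4 rose in siNELFA with the block. PSAP, the precursor of the saposins that activate sphingolipid hydrolases, gave 891, 477 and 533 CPM in siControl, 1297, 625 and 722 after siNELFA, 1334, 524 and 618 after siYAP, and 736, 752 and 724 after both siRNA pools. Replicate 1 was the highest in siControl, siNELFA and siYAP, and each siNELFA library lay above the siControl library of the same number. Its log2 fold change in siNELFA was 0.46 (SE 0.09, adjusted p = 0.0102) with the block, 0.47 (SE 0.35, adjusted p = 1.00) without, and 0.42 (SE 0.11, adjusted p = 0.158) without replicate 1 of both groups. NPC2, which hands cholesterol to NPC1, followed the same course at lower levels, with 175, 106 and 111 CPM in siControl, 237, 132 and 150.4 after siNELFA, 195, 106 and 121 after siYAP, and 141, 142 and 142 after both siRNA pools. It rose in siNELFA by 0.40 (SE 0.10, adjusted p = 0.0294) with the block and was at 0.41 (SE 0.30, adjusted p = 1.00) without. GRN, the progranulin precursor, stood at 179.9, 165 and 203 CPM in siControl, 389.6, 229 and 263 after siNELFA, 371, 191 and 232 after siYAP, and 261, 277 and 273 after both siRNA pools. All siNELFA and double-knockdown libraries lay above siControl, and the siYAP libraries overlapped it. The log2 fold change in siNELFA was 0.65 (SE 0.13, adjusted p = 0.0120) with the block and 0.69 (SE 0.23, adjusted p = 1.00) without. Without replicate 1 of both groups it was 0.43 (SE 0.13, adjusted p = 0.208). In siYAP it was 0.53 (SE 0.26, adjusted p = 1.00), or 0.20 without replicate 1 of both groups, and in the double knockdown 0.56 (SE 0.11, adjusted p = 0.0835). GM2A, the activator of ganglioside GM2 hydrolysis, lay between 58.5 and 79.2 CPM in the 12 libraries, and its log2 fold changes were -0.08, 0.00 and -0.07. In TPM its siNELFA libraries, at 17.8 to 20.4, lay below siControl, at 22.2 to 26.97.

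The V-ATPase genes besides TCIRG1 did not move as one. ATP6AP1, an accessory protein of the pump, was at 91.4, 58.9 and 65.2 CPM in siControl, 179.6, 83.6 and 87.5 after siNELFA, 149, 56.9 and 70.6 after siYAP, and 90.9, 92.96 and 88.05 after both siRNA pools. Its siNELFA libraries overlapped siControl through the high siControl replicate 1, yet each exceeded the siControl library of its number, by 0.97, 0.50 and 0.42 on the log2 scale in numbers 1 to 3. It rose in siNELFA by 0.64 (SE 0.12, adjusted p = 0.0115) with the block and was at 0.70 (SE 0.34, adjusted p = 1.00) without. ATP6V0D1, a d subunit of the membrane sector, had the opposite sign in siNELFA, at 20.8, 53.97 and 58.02 CPM in siControl, 16.8, 46.4 and 45.1 after siNELFA, 27.4, 56.5 and 63.02 after siYAP, and 44.9, 49.6 and 52.99 after both siRNA pools, and replicate 1 was the lowest of siControl, siNELFA and siYAP rather than the highest. Its log2 fold change in siNELFA was -0.29 (SE 0.48, adjusted p = 1.00) without the block and -0.29 (SE 0.13, adjusted p = 0.219) with it. ATP6V1B2, the B2 subunit of the catalytic sector, gave 72.6, 74.9 and 95.8 CPM in siControl, 91.2, 91.4 and 132 after siNELFA, 75.2, 71.9 and 106 after siYAP, and 132, 131 and 143 after both siRNA pools. The double-knockdown libraries lay above siControl and siYAP, with a log2 fold change of 0.73 (SE 0.14, adjusted p = 0.0735) against siControl. ATP6V1A, the catalytic A subunit, was at 126, 71.4 and 65.9 CPM in siControl, 174, 84.4 and 84.6 after siNELFA, 109, 60.5 and 71.3 after siYAP, and 87.7, 83.7 and 85.04 after both siRNA pools, and its double-knockdown estimate of -0.05 (SE 0.25, adjusted p = 0.937) became 0.31 (SE 0.07, adjusted p = 0.00646) without siControl replicate 1. ATP6V0C, the proteolipid of the proton ring, had log2 fold changes of 0.48, 0.23 and 0.51 in siNELFA, siYAP and the double knockdown. Its siControl replicate 1 was the low library, and the values were 0.21 and 0.03 without replicate 1 of both groups and 0.25 (SE 0.07, adjusted p = 0.0191) without siControl replicate 1. Of the gene, 60.9% of exon bases are shared with a read-through gene, RP11-20I23.1, whose count was 98.8% to 105% of its own. ATP6V1H, the regulatory H subunit, was at 27.5 to 32.3 CPM in all 12 libraries. In TPM, however, its siControl libraries at 21.3 to 24.8 lay above those of siNELFA at 13.7 to 17.4, of siYAP at 15.7 to 17.96 and of the double knockdown at 17.5 to 20.2.

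TFEB, the transcription factor that recognises the extended E-box, was low throughout, at 8.33, 6.92 and 7.70 CPM in siControl, 13.4, 8.23 and 4.09 after siNELFA, 20.5, 7.98 and 9.11 after siYAP, and 7.85, 7.86 and 6.60 after both siRNA pools. Replicate 1 of siYAP was more than 2-fold above the other siYAP libraries, and the siYAP estimate of 0.70 (SE 0.39, adjusted p = 1.00) was 0.23 without replicate 1 of both groups. Its relative TFE3 gave 146, 143 and 143 CPM in siControl, 149, 126 and 123 after siNELFA, 176, 145 and 149.5 after siYAP, and 122, 128 and 121 after both siRNA pools. Its double-knockdown libraries all lay below siControl, with a log2 fold change of -0.23 (SE 0.10, adjusted p = 0.267), or -0.22 (SE 0.06, adjusted p = 0.0191) without siControl replicate 1. SQSTM1, the autophagy receptor also called p62, was at 661, 693 and 729 CPM in siControl, 968, 924 and 965 after siNELFA, 1011, 727 and 842 after siYAP, and 1051, 1058 and 1019 after both siRNA pools. The siNELFA and double-knockdown libraries lay above all siControl libraries, and siYAP replicate 2 was below the highest of them. Its log2 fold change was 0.46 (SE 0.09, adjusted p = 0.0100) in siNELFA with the block, 0.46 (SE 0.14, adjusted p = 1.00) without it, 0.30 (SE 0.18, adjusted p = 1.00) in siYAP and 0.58 (SE 0.09, adjusted p = 0.0577) in the double knockdown. The MRNIP gene on the other strand shares 21.0% of the exon bases of SQSTM1.

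Comparing libraries of the same number showed how far the knockdown differences held across the replicate shift. In siNELFA, 24 of 37 genes exceeded siControl in all 3 numbers, against 22.1% of all genes, and 3 were below it in all 3, MANBA, GM2A and ATP6V0D1, against 22.0%. The median ratio was 0.41, 0.23 and 0.23 on the log2 scale in numbers 1, 2 and 3. In siYAP, 20 of 37 exceeded siControl in all 3 numbers, against 18.2% of all genes, and LAMP2, SCARB2 and TPP1 were below it in all 3, against 18.4%. The medians were 0.34, 0.06 and 0.12. The siControl libraries enter both counts.

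**Figure D4:**
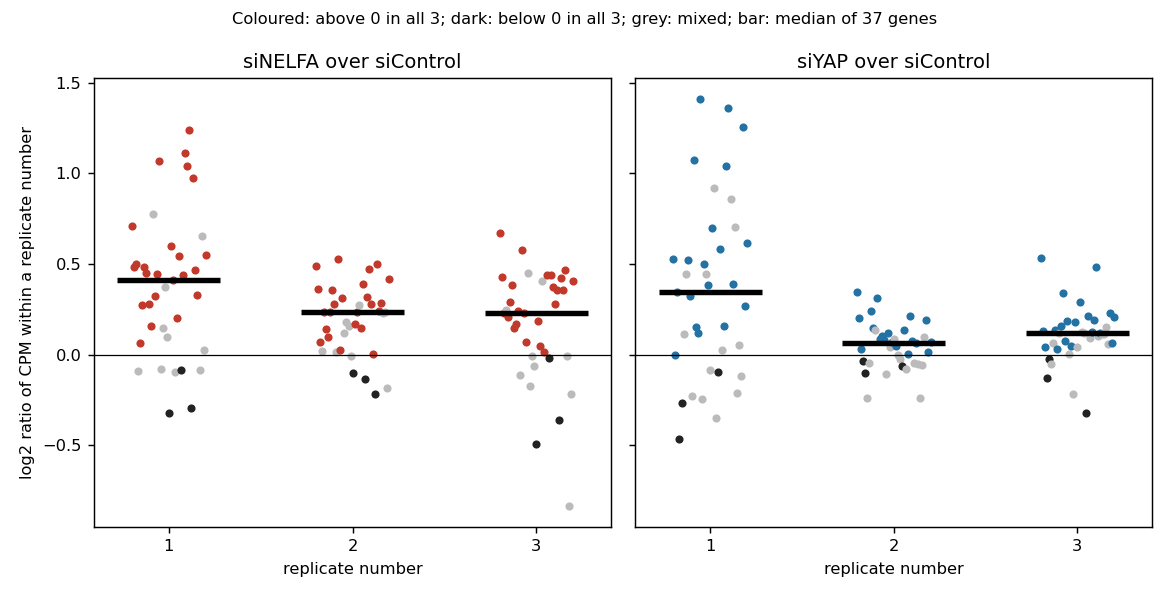
Log2 ratio of CPM in a knockdown library over the siControl library of the same replicate number, for each of the 37 genes (points) in siNELFA and siYAP, with the median as a bar. Coloured points are genes above 0 in all 3 numbers (24 in siNELFA, 20 in siYAP), dark points those below 0 in all 3, and grey points the others.

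The single knockdowns were set against each other directly. Without the block, no lysosomal gene differed between siNELFA and siYAP at an adjusted p under 0.05 (0.0116% of all genes) or at an unadjusted p under 0.05 (2.69% higher in siNELFA and 2.94% lower), the median difference was 0.15, and DESeq2 called 0. With the block, 11 genes were higher in siNELFA, against 8.33% of all genes, and 2 lower, against 7.44%. The 11 were CD63, LAMP2, SCARB2, NPC1, CTSL, ASAH1, TPP1, NPC2, ATP6AP1, ATP6V1A and ATP6V1B2, with log2 differences from 0.29 to 0.48. Lower in siNELFA were CTSD, at -0.28 (SE 0.07, adjusted p = 0.0112), and ATP6V0D1, at -0.46 (SE 0.11, adjusted p = 0.00519). CD68, with a difference of 0.16 (SE 0.08, adjusted p = 0.203), TCIRG1, with -0.10 (SE 0.09, adjusted p = 0.520), and GRN, with 0.18 (SE 0.08, adjusted p = 0.134), were not called.

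Adding a second knockdown was tested against each single one. No lysosomal gene passed the adjusted threshold for siNELFA+siYAP against siNELFA or against siYAP (in either direction, 0.00573% and 0.0350% of all genes did). Against siNELFA, 1 gene was higher at an unadjusted p under 0.05, against 2.69% of all genes, none was lower, against 3.93%, and DESeq2 called 0. Against siYAP 6 were higher (6.66%) and 2 lower (8.85%). DESeq2 called 2 against siYAP, a count given without the share of all genes and not read as an excess. The median log2 difference was -0.07 against siNELFA and -0.01 against siYAP. CD68 was higher in every double-knockdown library than in any siNELFA or siYAP library, with differences of 0.32 (SE 0.10, adjusted p = 0.735) and 0.47 (SE 0.10, adjusted p = 0.143). Without siYAP replicate 1, 20 genes rose and TFE3 fell against siYAP, where 7.96% and 8.56% of all genes did, and the median was 0.31. Without siNELFA replicate 1, TCIRG1 and NEU1 rose against siNELFA, where 0.481% of all genes did, and the median was 0.13. In a fit over all 12 libraries with a term for departure of the double knockdown from the sum of the single ones, added after the data were seen, 0 of 37 genes passed at an adjusted or at an unadjusted p under 0.05 (0% and 1.76% of all 18525 genes). The estimate was below 0 for 29 of 37, with a median of -0.26 beside -0.01 for all genes, and those estimates carry the replicate 1 libraries of 3 groups.

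A further 121 genes of the same organelle and its control were examined by list, of which 119 were tested in siNELFA. With the block, 13 rose and 2 fell in siNELFA at an adjusted p under 0.05, against 2.76% and 2.45% of all genes, and without it 0 did either. Shares of the smaller lists below rest on 1 to 4 genes each and are given against the same percentages. Of 17 other V-ATPase subunits tested, 2 rose and 1 fell, with ATP6V0B at 0.78 (SE 0.16, adjusted p = 0.0155) and ATP6V1C1 at -0.61 (SE 0.12, adjusted p = 0.0115). Of 34 other hydrolases and lumenal proteins, 4 rose and none fell, among them the protease legumain, LGMN, at 0.64 (SE 0.11, adjusted p = 0.00536), and the thioesterase PPT2 at 0.62 (SE 0.12, adjusted p = 0.0126). Of 22 other membrane proteins 4 rose and none fell. Of 11 genes of mannose 6-phosphate and sortilin sorting, 1 rose. Among 17 genes of TFEB and mTORC1 control, FNIP2, a partner of folliculin, fell by 0.61 (SE 0.14, adjusted p = 0.0207), and none rose. Of 18 autophagy genes, 2 rose. No gene of these lists passed the adjusted threshold in siYAP, with or without the block, or in the double knockdown without it. The median log2 fold change of the 119 was 0.18 in siNELFA, that of the 117 tested in siYAP was 0.07, and that of the double knockdown was 0.10.

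The genes with CACGTG in their promoter window had a median log2 fold change of 0.35 in siNELFA over the 8 with it, beside 0.25 over the 20 without it. In siYAP the medians were 0.24 and 0.15, and in the double knockdown 0.39 and 0.14. Among the 8, ATP6V0D1 and CTSD were at -0.29 and 0.36 in siNELFA, while CD68, TCIRG1, GRN and SQSTM1 were among the 20. These are descriptions of small sets and were not tested.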

How the data were processed

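MDA-MB-231 RNA from 4 siRNA groups of 3 libraries, which the study's methods call independent biological replicates, was sequenced from stranded, ribosomal RNA-depleted libraries. The authors aligned reads with STAR to GRCh38 with Ensembl annotation and deposited featureCounts gene counts and TPM values. Tool versions and counting options are not given in the sources used here. A further table with 12 per-sample FPKM columns was not used.

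Here, edgeR 4.0.16 (R 4.3.3) quasi-likelihood tests with TMM factors were run on the 6 libraries of each comparison, after filterByExpr (at least 10 counts in enough libraries, 15 in all), with Benjamini-Hochberg adjustment over all genes tested. Standard errors are the log2 fold change over the root of F. CPM used TMM factors over the 12 libraries. Deviations of same-numbered libraries correlated at 0.650 to 0.889 among siControl, siNELFA and siYAP over 12971 genes, and at -0.051 to 0.028 with siNELFA+siYAP, so the replicate number was taken to pair the former. DESeq2 1.42.0 and limma 3.58.1 served as alternatives. The tests without a block were checked on simulated counts. Those counts had a smaller spread than siControl, siNELFA and siYAP, larger changes than the lysosomal genes, and no outlying library. The block was not simulated, so the check does not bear on the calls made with it. Library totals ran from 9608145 to 18803104. Genes named with every library were chosen by rule: CD68, TCIRG1, TFEB, TFE3, SQSTM1, those past an adjusted p of 0.05 against siControl with or without the block, and the highest and lowest estimate of each subgroup and comparison, 22 genes in all. Other lysosomal genes were named only if called, at most the 5 with the largest change. The 37 genes and the lists were chosen with earlier results of these data known. Gene positions come from the GENCODE annotation of GRCh38.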

Additional observations from a re-analysis of the deposited data

How the results depend on the processing

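Each result was recomputed with RLE factors, DESeq2, no filter on low counts, a minimum of 50 counts, a fit over all 12 libraries, the replicate block, limma on log2(TPM + 1) and log2(TPM + 0.1), and without each library in turn. The median log2 fold change of the 37 genes was 0.02 to 0.45 in siNELFA (0.27 in the report), -0.03 to 0.33 in siYAP (0.13) and 0.02 to 0.27 in siNELFA+siYAP (0.14). The lowest values in siNELFA and siNELFA+siYAP came on the TPM scales, where the median of all genes was -0.17 and -0.11, and in siYAP without siYAP replicate 1, the 1 setting where the sign turned. Without siNELFA replicate 1 the siNELFA median was 0.05. In siNELFA the count past an adjusted p of 0.05 went from 0 to 9 with the replicate block (2.76% of all genes higher and 2.45% lower). The count past an unadjusted p of 0.05 went from 5 to 20 with the block (10.5% and 9.78%). It went to 13 without replicate 1 of both groups (7.10% and 7.15%), a setting added after the data were seen, and to 2 to 8 without 1 library. In siYAP the unadjusted count went from 2 to 10 with the block and to 0 to 3 without 1 library. In siNELFA+siYAP the adjusted count of 1 became 6 with DESeq2 (2.35% of all genes higher), 4 with no filter, 3 with a minimum of 50 counts, and 0 with the block, with log2(TPM + 1) and with log2(TPM + 0.1). Without 1 library it was 0 to 23, the highest without siControl replicate 1 (11.5% of all genes higher and 12.9% lower). The unadjusted count of 12 was 6 to 26 without 1 library. Without siControl replicate 1, 16.8% of all genes were higher and 18.0% lower at an unadjusted p under 0.05. In the same comparison LAMP2, at -0.64, ran from -0.91 to 0.19 and ATP6V1A, at -0.05, from -0.21 to 0.31 without 1 library, both highest and called without siControl replicate 1, and the cause was not tested. Without any call, LAMP2 in siNELFA and GM2A in siYAP changed sign in 7 of 15 alternatives each, and MANBA in siYAP in 5. ATP6V1B2 in siYAP, TPP1 in siNELFA and CTSD in siNELFA did so in 4 of 15 each. CD68 in siNELFA+siYAP had an adjusted p of 0.194 with the block and 0.102 and 0.0891 on the TPM scales. Against siNELFA the adjusted count of siNELFA+siYAP was 0, or 0 to 2 without 1 library. Against siYAP it was 0, or 2 with DESeq2 and 0 to 21 without 1 library, the highest without siYAP replicate 1 (7.96% of all genes higher and 8.56% lower). Between siNELFA and siYAP it was 0, or 13 with the block (8.33% of all genes higher and 7.44% lower). A count given here without a share of all genes is not read as an excess. Replicate numbers did not pair siNELFA+siYAP with other groups, so its block is not a paired fit. With 3 libraries a group, and 2 where 1 is left out, a missed threshold does not show that a gene was unchanged.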
